A study of Mus musculus with 2 samples.

Results

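The genes described here encode the enzymes that oxidise, hydrolyse and conjugate foreign chemicals, together with the aryl hydrocarbon receptor (AhR) that senses many of them. They were chosen by name. The set takes every gene of the cytochrome P450 families Cyp1 to Cyp4, the UDP-glucuronosyltransferases (Ugt1 and Ugt2), the carboxylesterases (Ces), the sulfotransferases (Sult) and the aldehyde dehydrogenases (Aldh, apart from Aldh1a1, Aldh1a2, Aldh1a3 and Aldh1a7). Ahr, Ahrr, Tiparp and Ephx1 were added. With only probe sets assigned to exactly 1 gene, the set held 110 of 18193 genes, read by 148 of 34945 probe sets.

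AhR is a ligand-activated transcription factor of the cytosol. Bound by polycyclic aromatic hydrocarbons it enters the nucleus, pairs with Arnt and binds short DNA elements with the core GCGTG, the xenobiotic response elements. Its best-known targets are Cyp1a1, Cyp1a2 and Cyp1b1, its own repressor Ahrr and Tiparp. The carcinogen DMBA is itself a polycyclic hydrocarbon that Cyp1 enzymes and the microsomal epoxide hydrolase Ephx1 turn into a DNA-binding diol epoxide. Many relatives of these enzymes act in the liver, and some work on the skin's own lipids.

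Expression was measured in CD34+ epithelial cells sorted from skin tumours, on 1 array for a K14CreER:Rosa-VEGF-164 mouse and 1 array for a wild-type mouse. The first carries a VEGF-164 transgene at the Rosa locus and an inducible Cre driven by the keratin 14 promoter, which is active in basal keratinocytes. Whether and when Cre was induced, how old the mice were at collection and how many tumours or mice stand behind an array were not stated. Mice of both genotypes had received the same carcinogenesis scheme, DMBA at postnatal days 23, 25 and 27, repeated TPA (a phorbol ester tumour promoter) over several weeks and DMBA again at 7 weeks of age. The wait between the last DMBA and the sort was not stated either.

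With 1 array per genotype there was no replicate error, and no test between the genotypes was possible. Values are MAS5 signals, and a gene is read by its brightest probe set. The background level, set from probe sets of olfactory and vomeronasal receptors, was 11.3 on the array labelled VEGF and 19.9 on the wild-type array. A gene was called higher or lower when at least 2-fold apart, and a fold against a background level is a lower bound, written "at least". The SD beside a log2 ratio is a technical one, for 1 probe set, and comes from genes read by several probe sets. It was 0.50 at low, 0.42 at middle and 0.32 at high signal and leaves out the spread between animals, tumours and sorts. Of the 12194 genes with a ratio or bound, 3.87% passed the rule as higher and 8.54% as lower on the array labelled VEGF.

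Vegfa itself had a signal of 397 on the array labelled VEGF and 804 on the wild-type array, so it does not bear out the label. Whether its probe set reads the transgene is unknown, and all directions below follow the label. Cd34, the marker that defines the cells, read 751 against 430.3, and the epithelial gene Epcam read 1905 against 1597. All 7 basal keratinocyte markers were above background on both arrays, and 1 of them (Krt15) was at least 2-fold lower, with summed signals of 26393 against 31510. Cells had also been stained for CD45, CD31 and CD140a (leukocyte, endothelial and fibroblast markers) before sorting, though how these stains were gated was not stated. Markers of other cell types differed between the arrays. Of 9 differentiated keratinocyte markers, 5 were at least 2-fold higher and 0 lower on the array labelled VEGF, with summed signals of 13828 against 11523. Of 7 fibroblast markers, 2 were higher and 0 lower, with sums of 2677 against 1156. Of 6 measured sebocyte markers, 2 were lower and 0 higher, with sums of 1743 against 2108. Of 8 hair sheath markers, 5 were lower and 0 higher, with sums of 181 against 424. Summed signals were 126 against 89.0 for 6 endothelial markers, 224 against 246 for 8 macrophage and dendritic cell markers, and 170.3 against 364 for 5 melanocyte markers. These sums include signals below background. Among the endothelial markers only Kdr and Cdh5 were above background on both arrays, with log2 ratios of 0.47 and -0.70. The T cell genes Cd3e, Cd3g and Cd4 were below background on both arrays. Cd8a read 22.2 against 59.6 by a probe set that can bind several transcripts, and its other probe sets were below background on both arrays. In sorted cells read in bulk, fewer cells of a type and less RNA per cell cannot be told apart.

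Most of the xenobiotic genes were not measurably expressed. Of the 110, 34 were above background on both arrays (30.9%, against 61.7% of all genes), 14 only on the array labelled VEGF (12.7%, against 8.29% of all genes), 0 only on the wild-type array (2.58% of all genes) and 62 on neither (27.4% of all genes were on neither). The background level was lower on the array labelled VEGF, which alone allows more genes above it there. All 8 Ugt2 genes, 11 of 13 Sult genes and 22 of 35 Cyp2 genes lay below background on both arrays. The 62 undetected genes had signals between 0.323 and 10.5 on the array labelled VEGF and between 0.261 and 18.4 on the wild-type array. By contrast 13 of 16 Aldh genes were above background on both arrays. The Ugt1 genes had no probe set of their own in the annotation and are not analysed here. The plot of signals shows the 48 genes above background on at least 1 array.

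**Figure D1:**
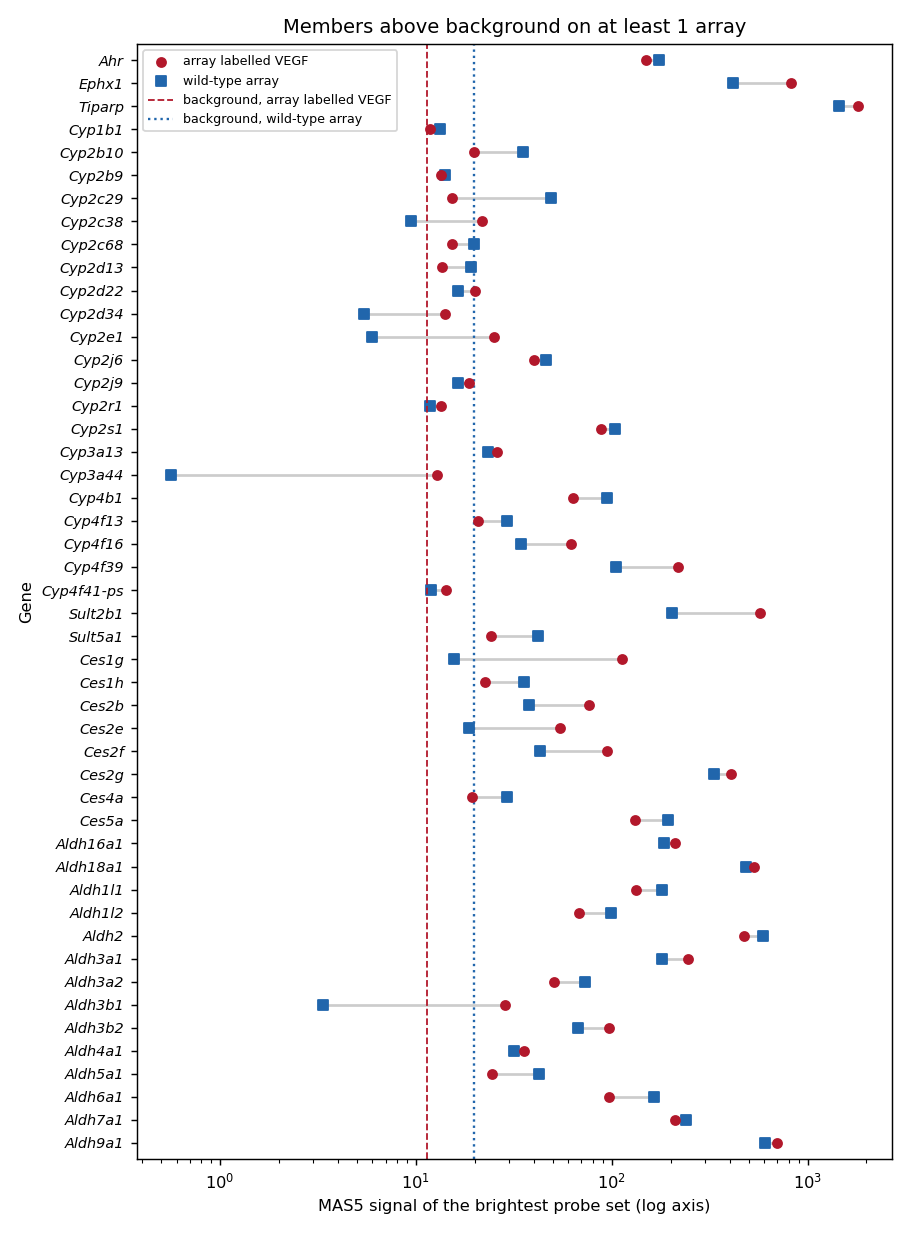
MAS5 signals (log axis) of the brightest probe set of the 48 genes above background on at least 1 array, ordered by family, with red circles for the array labelled VEGF, blue squares for the wild-type array and vertical lines at each array's background level. Tiparp, Ephx1, Aldh9a1 and Sult2b1 lie far above both levels, while most Cyp2 genes sit at or between them.

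A log2 ratio or bound was available for 40 of the 110 genes, 34 as ratios and 6 as bounds. By the 2-fold rule 6 of the 40 were higher on the array labelled VEGF (Ces1g, Sult2b1, Ces2e, Ces2f, Cyp4f39 and Ces2b), where 3.87% of all genes were, and 1 was lower (Cyp2c29), where 8.54% were. Apart from Ces2f, each of these 7 was read by a single probe set. The median log2 ratio of the 40 was 0.07, against -0.04 for all genes with a value, and -0.22 over the 34 genes above background on both arrays. Of the 34 ratios 15 were above and 19 below 0. The 6 bounds can only lie above 0, since their genes were detected on the array labelled VEGF alone. Ces1g and Ces2e count only through the array on which they were bright, since they were below background on the wild-type array. The remaining 8 genes detected only on the array labelled VEGF had signals there of 11.8 to 18.8, under the wild-type background, and got no fold.

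**Figure D2:**
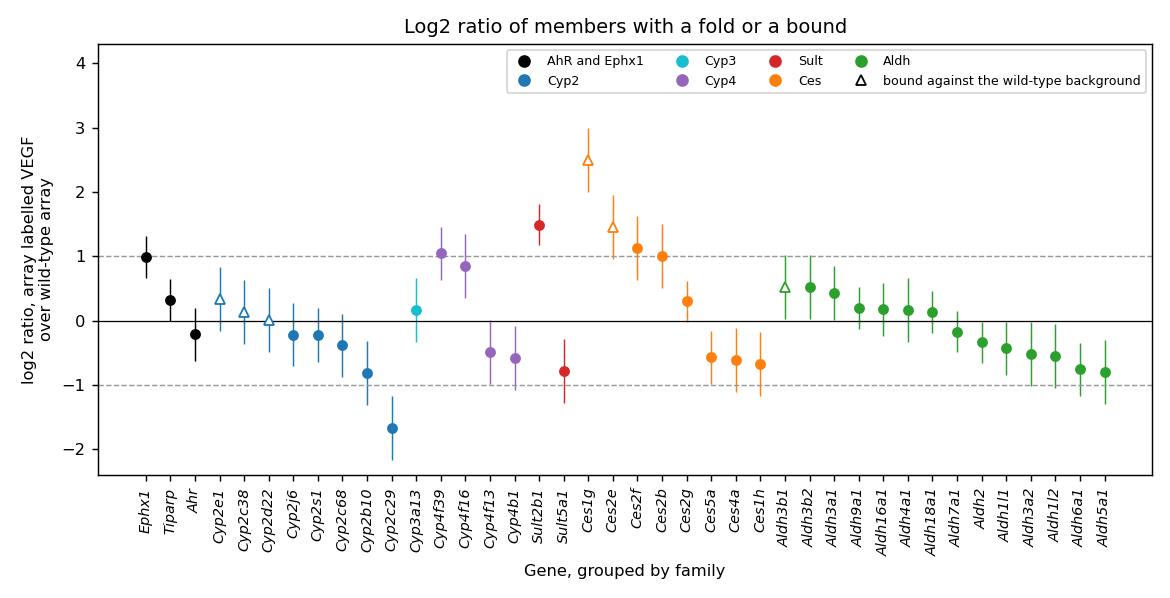
Log2 ratio (array labelled VEGF over wild-type array) of the 40 genes with a value, grouped and coloured by family. Circles are ratios, open triangles are bounds against the wild-type background, bars are ± 1 SD of the ratio of 1 probe set and dashed lines mark 2-fold. The Ces family holds 4 of the 6 genes past the upper line, and Cyp2c29 alone is past the lower line.

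The AhR branch was read first at its sensor and its classical targets. Ahr, the receptor gene, had a signal of 150.4 on the array labelled VEGF and 175 on the wild-type array (log2 ratio -0.22, SD 0.42). The other Ahr probe set was close to background, with 9.22 on the array labelled VEGF and 22.5 on the wild-type array. That is a bound of at least 1.98-fold lower. The main ratio is within 1 SD of 0, and the median over both Ahr probe sets was -0.60. The ratio was 0.14 in a setting that matched the array medians (a shift of 0.39 log2), added 50 to each signal and used no background level. That setting is called the combined setting below. Its matching alone adds 0.39 to every log2 ratio, so a sign that turns under it is not particular to the gene. Adding 50 draws every ratio toward 0, most at low signal. Tiparp, a member of the poly(ADP-ribose) polymerase family that restrains AhR, was bright on both arrays, with 1813 against 1455 (log2 ratio 0.32, SD 0.32). Its other probe sets read 1332 against 1189 and 576 against 424, so all 3 lay above 0 and under 2-fold. Ahrr, the AhR repressor gene, was below background with 3.02 against 1.62.

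The P450 genes that activate DMBA were at or below background. Cyp1a1, the most inducible AhR target, had signals of 10.1 on the array labelled VEGF and 11.7 on the wild-type array. Cyp1a2, mainly a liver enzyme, read 8.73 against 2.24. Cyp1b1, an extrahepatic hydrocarbon-activating P450, read 11.8 against 13.3 with its brightest probe set and 14.9 against 1.44 and 2.84 against 11.6 with the others. On the array labelled VEGF 2 of these 3 Cyp1b1 probe sets passed a background of 11.3 by a small margin, and none passed on the wild-type array. No fold is given for any Cyp1 gene. Aldh3a1, which oxidises aldehydes and is an AhR target in liver, read 244 against 181 (log2 ratio 0.43, SD 0.42).

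The promoters of Cyp1a1, Cyp1b1, Ahrr and Tiparp are shown because they carry the core of the response element. Their genes lay below background (Cyp1a1, Ahrr), at its edge (Cyp1b1) or far above it (Tiparp). Each sequence is the 250 bases before the RefSeq transcription start in the GRCm38.p6 mouse genome, given 5′ to 3′ on the gene's strand. They lie at chr9:57697363-57697612 on the plus strand for Cyp1a1, chr17:79715062-79715311 on the minus strand for Cyp1b1, chr13:74292332-74292581 on the minus strand for Ahrr and chr3:65528197-65528446 on the plus strand for Tiparp. Capitals mark each match to GCGTG or its reverse complement, and to the AP-1 motif TGANTCA, of which these 4 windows held none.
Cyp1a1: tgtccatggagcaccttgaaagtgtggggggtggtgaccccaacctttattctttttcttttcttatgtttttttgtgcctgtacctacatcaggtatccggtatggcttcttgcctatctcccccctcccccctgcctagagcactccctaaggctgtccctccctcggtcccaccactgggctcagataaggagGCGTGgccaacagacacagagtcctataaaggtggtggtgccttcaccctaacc
Cyp1b1: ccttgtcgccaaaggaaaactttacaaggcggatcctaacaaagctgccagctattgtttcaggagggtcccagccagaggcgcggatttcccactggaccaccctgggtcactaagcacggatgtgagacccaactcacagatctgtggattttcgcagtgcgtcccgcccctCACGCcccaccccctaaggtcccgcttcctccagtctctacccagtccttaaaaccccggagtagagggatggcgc
Ahrr: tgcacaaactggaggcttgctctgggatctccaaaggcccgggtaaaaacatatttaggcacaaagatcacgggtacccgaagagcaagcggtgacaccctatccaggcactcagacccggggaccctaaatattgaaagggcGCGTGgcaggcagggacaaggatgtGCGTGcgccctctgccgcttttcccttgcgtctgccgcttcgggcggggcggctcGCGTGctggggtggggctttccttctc
Tiparp: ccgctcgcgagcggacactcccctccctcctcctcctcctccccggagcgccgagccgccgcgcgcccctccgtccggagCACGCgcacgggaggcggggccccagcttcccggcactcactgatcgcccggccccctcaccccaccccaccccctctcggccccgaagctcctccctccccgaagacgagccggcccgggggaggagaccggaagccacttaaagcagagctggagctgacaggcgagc

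The core began 54 bases upstream of the start in Cyp1a1, 76 bases upstream in Cyp1b1 (reverse strand) and 170 bases upstream in Tiparp (reverse strand). In Ahrr it began 107, 82 and 27 bases upstream. The window of Cyp1a2, another of the best-known targets, held no match to the core and is not shown. Such a short motif is common. Searched on both strands it occurred in 28.2% of 32851 RefSeq promoter windows of this length and in 20.8% of the 96 windows of 86 of the 110 genes. A match is a description of the letters and not evidence of binding.

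Ephx1, the microsomal epoxide hydrolase that opens the epoxide of DMBA on the way to the diol epoxide, lay at the edge of the 2-fold rule. Its signal was 828 on the array labelled VEGF and 417 on the wild-type array, a log2 ratio of 0.99 (SD 0.32). At 1.99-fold it did not pass, and it passed in 2 of 10 other settings, reaching 1.28 in the combined setting and 1.03 with centred ratios. It was read by 1 probe set.

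Among the sulfotransferases, Sult2b1 was 2.81-fold higher. It had a signal of 571 on the array labelled VEGF and 203 on the wild-type array (log2 ratio 1.49, SD 0.32). Sult2b1 sulfates cholesterol and is the source of the cholesterol sulfate of the cornified layer. Only 1 other Sult gene was detected, Sult5a1, with 24.3 against 42.0 (log2 ratio -0.79, SD 0.50). The phenol and estrogen sulfotransferase genes Sult1a1 (5.32 against 1.20) and Sult1e1 (0.78 against 0.82) were below background on both arrays. Papss2, which makes the sulfate donor and was listed among the cofactor genes, was 2.12-fold higher at low signal (52.8 against 25.0), with its other 3 probe sets below background on both arrays. Papss1, the related synthase, read 517 against 422 (log2 ratio 0.29).

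In the Cyp4 family, whose enzymes hydroxylate fatty acids at their end, Cyp4f39 was 2.06-fold higher. Its signal was 217 on the array labelled VEGF and 105 on the wild-type array (log2 ratio 1.04, SD 0.42). Cyp4f39 is the mouse counterpart of human CYP4F22, which makes the very long ω-hydroxy fatty acids of skin acylceramides and is mutated in a form of ichthyosis. Cyp4f16 read 62.1 against 34.5 (log2 ratio 0.85, SD 0.50). Going the other way, Cyp4b1, a P450 of fatty acid and pro-toxicant oxidation, read 63.3 against 94.3 (log2 ratio -0.58) and Cyp4f13 20.9 against 29.4 (-0.49). Of the 4 genes with a ratio, Cyp4f39 alone passed the 2-fold rule. The remaining 9 of 13 Cyp4 genes had no fold.

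The promoters of Sult2b1 and Cyp4f39 are shown because these enzymes of epidermal lipids passed the rule with signals above background on both arrays. RefSeq gives Sult2b1 a pair of starts, with windows at chr7:45742479-45742728 and chr7:45759613-45759862 on the minus strand, and Cyp4f39 a window at chr17:32452473-32452722 on the plus strand, all in GRCm38.p6. Build, length and capitals are as for the AhR targets. The Sult2b1 starts are numbered by genome coordinate, so on the minus strand the first lies downstream of the second.
Sult2b1, first start: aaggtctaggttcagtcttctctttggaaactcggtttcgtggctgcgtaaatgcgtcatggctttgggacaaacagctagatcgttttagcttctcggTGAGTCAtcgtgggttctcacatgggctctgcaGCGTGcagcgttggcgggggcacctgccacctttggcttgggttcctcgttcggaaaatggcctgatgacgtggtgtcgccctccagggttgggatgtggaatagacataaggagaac
Sult2b1, second start: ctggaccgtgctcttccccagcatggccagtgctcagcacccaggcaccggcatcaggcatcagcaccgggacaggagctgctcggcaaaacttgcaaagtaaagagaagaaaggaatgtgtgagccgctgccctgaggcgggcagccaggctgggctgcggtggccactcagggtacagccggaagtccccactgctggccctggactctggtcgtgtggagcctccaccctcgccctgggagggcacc
Cyp4f39: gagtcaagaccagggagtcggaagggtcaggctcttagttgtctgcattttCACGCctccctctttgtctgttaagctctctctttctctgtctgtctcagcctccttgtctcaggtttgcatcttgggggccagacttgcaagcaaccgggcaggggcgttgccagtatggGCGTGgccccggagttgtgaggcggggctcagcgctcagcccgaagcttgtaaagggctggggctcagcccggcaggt

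The first Sult2b1 window, at the downstream start, held an AP-1 match that began 151 bases upstream and a GCGTG that began 118 bases upstream. The second window held neither. Cyp4f39 had GCGTG at 78 bases and, on the reverse strand, at 199 bases upstream. AP-1, the factor that TPA activates, had its motif in 6.75% of all windows and in 9.38% of the 96 windows. Promoters were at hand for 6 of the 7 genes at least 2-fold apart, and 2 of their 7 windows held GCGTG. Which start the array probes read is not known.

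Carboxylesterases, which hydrolyse esters of drugs and lipids, held 4 of the 6 higher genes. All 13 Ces genes map to mouse chromosome 8 in the RefSeq table. Ces1g, a lipid esterase of liver and intestine, had a signal of 112 on the array labelled VEGF and 15.7 on the wild-type array, where it was below background, and was at least 5.65-fold higher. Ces1h went the other way with 22.5 against 35.8 (log2 ratio -0.67), and the remaining 4 Ces1 genes were below background on both arrays. In the Ces2 group 3 of 5 genes had a ratio, all above 0, and Ces2e had a bound. Over the 6 Ces genes on both arrays 3 ratios were above and 3 below 0.

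Ces2e read 54.4 on the array labelled VEGF and 18.8 on the wild-type array and was at least 2.74-fold higher. Ces2f read 94.3 against 43.0 (2.19-fold, log2 ratio 1.13, SD 0.50), and its other probe set was below background on both arrays. Ces2b read 76.4 against 38.0, a log2 ratio of 1.01 (SD 0.50) that only just passed the rule. Ces2g did not pass, with 408 against 332 (log2 ratio 0.30, SD 0.32). Ces2a was below background with 1.32 against 0.65. Ces2 genes are close paralogs, so how much signal a probe set takes from a neighbour is uncertain. In the combined setting Ces2b, Ces2e and Ces2f were under 2-fold (log2 ratios 0.77, 0.82 and 0.90), while Ces1g kept 1.58. The matching alone raises these ratios, so the fall came with the 50 added to each signal. Ces5a read 131 against 195 (log2 ratio -0.57, a probe set that can bind several transcripts) and Ces4a 19.3 against 29.3 (-0.61).

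**Figure D3:**
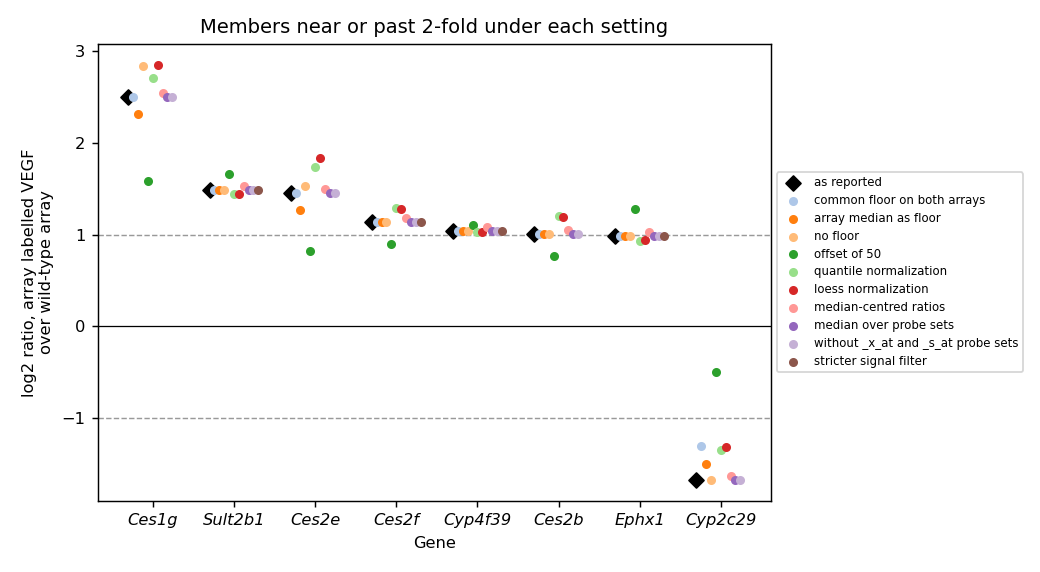
Log2 ratio (array labelled VEGF over wild-type array) of the 7 genes at least 2-fold apart and of Ephx1, as reported (black diamonds) and under 10 other settings (coloured dots), with dashed lines at 2-fold. Sult2b1 and Cyp4f39 stay above 1 in all 10 settings, and Cyp2c29 lies between -1.67 and -0.50. Settings that neither rescale the signals nor centre the ratios cannot move Sult2b1 and Cyp4f39, each read by 1 probe set above background on both arrays.

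Aldehyde dehydrogenases were the most widely expressed family, and 0 of 16 were 2-fold apart. Of the 13 above background on both arrays, 6 had a ratio above and 7 below 0, with a median of -0.17. Aldh3b2 and Aldh3b1 encode enzymes of lipid aldehydes. Aldh3b2 read 96.7 on the array labelled VEGF and 67.5 on the wild-type array (log2 ratio 0.52, SD 0.50), and Aldh3b1 read 28.6 against 3.34, a bound of at least 1.44-fold higher. Aldh9a1, of carnitine synthesis, read 698 against 609 (0.20), with 284 against 208 by its other probe set. Aldh18a1, of proline synthesis, read 531 against 484 (0.13), while 4 further probe sets of the gene ranged from -0.32 to 0.20. The probe sets of Aldh16a1 disagreed, with 209 against 186 (0.17) and 158 against 239 (-0.60). Aldh1b1 and Aldh8a1 were below background on both arrays.

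The lowest Aldh ratios were those of Aldh5a1 and Aldh6a1, both mitochondrial enzymes. Aldh5a1, which clears succinic semialdehyde from GABA breakdown, read 24.3 on the array labelled VEGF and 42.5 on the wild-type array (log2 ratio -0.80, SD 0.50). Aldh6a1, of valine and thymine breakdown, read 96.8 against 164 (-0.76, SD 0.42). Aldh1l2, of mitochondrial folate metabolism, read 67.9 against 99.6 (-0.55), and its cytosolic relative Aldh1l1 134 against 180.4 (-0.43). Aldh3a2, the fatty aldehyde dehydrogenase that is deficient in human Sjögren-Larsson syndrome, read 50.8 against 72.8 (-0.52). Aldh2, which detoxifies acetaldehyde, read 471 against 595 (-0.34, SD 0.32), with its other 4 probe sets at or near background. Of those, 1 was at least 2.11-fold lower (8.50 against 23.9), and the median over probe sets was -0.90. Aldh7a1, of lysine breakdown, read 212 against 239 (-0.17). None of these genes reached 2-fold by its brightest probe set, and Aldh4a1, a mitochondrial enzyme of proline breakdown, read 35.8 against 31.9 (0.17).

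The Cyp2 and Cyp3 families, which hold most drug-metabolising P450s of the liver, were largely dim. Cyp2c29, a liver P450, was 3.19-fold lower by the rule. Its signal was 15.3 on the array labelled VEGF, close to background, and 48.9 on the wild-type array (log2 ratio -1.67, SD 0.50). With a background level common to both arrays its log2 value was -1.30, a bound, and in the combined setting it was -0.50, under 2-fold. There both the matching and the 50 added to its dim signals draw a negative ratio toward 0. Cyp2s1, an epithelial P450 induced by AhR ligands, was under 2-fold, with 88.7 against 104 (log2 ratio -0.22, SD 0.42, and 0.11 in the combined setting). Cyp2j6, of arachidonic acid epoxidation, read 39.9 against 46.4 (-0.22, SD 0.50). Quantile normalization turned its sign (0.04), as did loess (0.03) and the combined setting (0.09).

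Cyp2c68, with 15.2 on the array labelled VEGF and 19.9 on the wild-type array, was at the edge of background (log2 ratio -0.39). For Cyp2e1 (25.0 against 5.99), Cyp2c38 (21.8 against 9.47) and Cyp2d22 (19.9 against 16.5) the bounds were all under 2-fold, with log2 values of 0.33, 0.13 and 0.01. Cyp2e1 is the ethanol-oxidising P450 of liver.

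Cyp2b10, a drug-inducible P450, shows how far probe sets can part at low signal. They read 19.9 against 35.2, 17.8 against 28.2 and 35.6 against 3.49 on the array labelled VEGF and the array of the wild type. The first and second thus lay below 0 (log2 ratios -0.82 and -0.66), and the last was at least 1.79-fold higher. Cyp3a13 read 26.0 against 23.3 (log2 ratio 0.16). Cyp3a44 passed background on the array labelled VEGF alone (12.8 against 0.562) and got no fold. Only 5 genes of the set had more than 1 probe set detected on each array, and in 3 of them all such probe sets went the same way. Over all genes this held for 2624 of 4885. Cyp2b10 is among the 3, since its last probe set was detected only on the array labelled VEGF and was not counted.

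Other genes of the pathway came from 4 lists, of which 93 of 102 genes were measured. Of the 70 with a value, 4 passed the rule as higher and 4 as lower, and the median log2 ratio of the 70 was 0.07. In the list of AhR partners 0 of 12 measured genes were 2-fold apart, and the median was -0.16. Arnt, the dimer partner of AhR, read 192 on the array labelled VEGF and 214 on the wild-type array (log2 ratio -0.16, SD 0.42). Its other probe sets above background on both arrays disagreed, with 78.6 against 101 (-0.37) and 40.3 against 28.7 (0.49). Nqo1, a quinone reductase induced through AhR and Nrf2, read 341 against 239 (0.51, SD 0.32). Hsp90aa1, a chaperone of unliganded AhR, read 4887 against 3544 (0.46), and Hif1a, another partner of Arnt, 2838 against 5236 (-0.88).

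Among 13 electron donor and cofactor genes, 1 was higher (Papss2) and 0 lower, with a median of 0.29. Alas1, the first enzyme of haem synthesis, read 216 on the array labelled VEGF and 123 on the wild-type array (log2 ratio 0.82, SD 0.42), but its other probe set read 33.1 against 35.1 (-0.09). Cyb5a, which encodes cytochrome b5 and was bright on both arrays, read 1483 against 1676 (-0.18). Of 13 nuclear receptor genes, 2 were lower and 0 higher, with a median of -0.32. Pparg, a receptor of lipid-producing cells, read 26.6 against 84.9 (3.19-fold lower), and Rxrg read 8.52 against 25.4, at least 2.24-fold lower. The sebocyte markers also had a lower sum there (1743 against 2108). Of the 5 with a ratio, 4 lay below 0 and 1 above (Fasn, 684 against 365). The part of such cells in the ratios of Pparg and Rxrg was not tested. The drug sensors Nr1i2 (16.4 against 18.7) and Nr1i3 (2.03 against 2.31) were at or below background. Rxra read 294 against 368 (log2 ratio -0.32), and 109 against 104 (0.06) by another probe set.

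Of 55 other conjugating and oxidising enzymes, 3 were higher and 2 lower, with a median of 0.19. Ephx3, an epoxide hydrolase of skin lipids, was 4.18-fold higher, with 128 on the array labelled VEGF and 30.6 on the wild-type array. Ephx2, the soluble epoxide hydrolase, was 3.69-fold lower, with 25.8 against 95.1. Ephx2 thus lay on the other side of 0 from Ephx1 and Ephx3. Gsta2, a glutathione transferase, was 2.34-fold higher (382 against 163). Gsta3 was at least 3.90-fold higher by its main probe set (77.5 against 13.0) and 1.10-fold by the other (24.3 against 22.1). Gsta4 was under 2-fold, with 6569 against 3843 (log2 ratio 0.77). Gsta genes are related in sequence, so how much signal a probe set takes from another gene of the group is uncertain. The Gstm transferase genes went the other way, under 2-fold by their main probe sets. Their log2 ratios were -0.95 for Gstm1, -0.93 for Gstm2, -0.74 for Gstm5, -0.54 for Gstm3 and -0.02 for Gstm4. Gstm6 was below background on both arrays. The other Gstm1 probe sets were 1.68-fold to 3.69-fold lower. Adh1, an alcohol dehydrogenase, was at least 2.46-fold lower (10.5 against 27.9), and Gsto1, bright on both arrays, read 8709 against 7003 (log2 ratio 0.31).

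**Figure D4:**
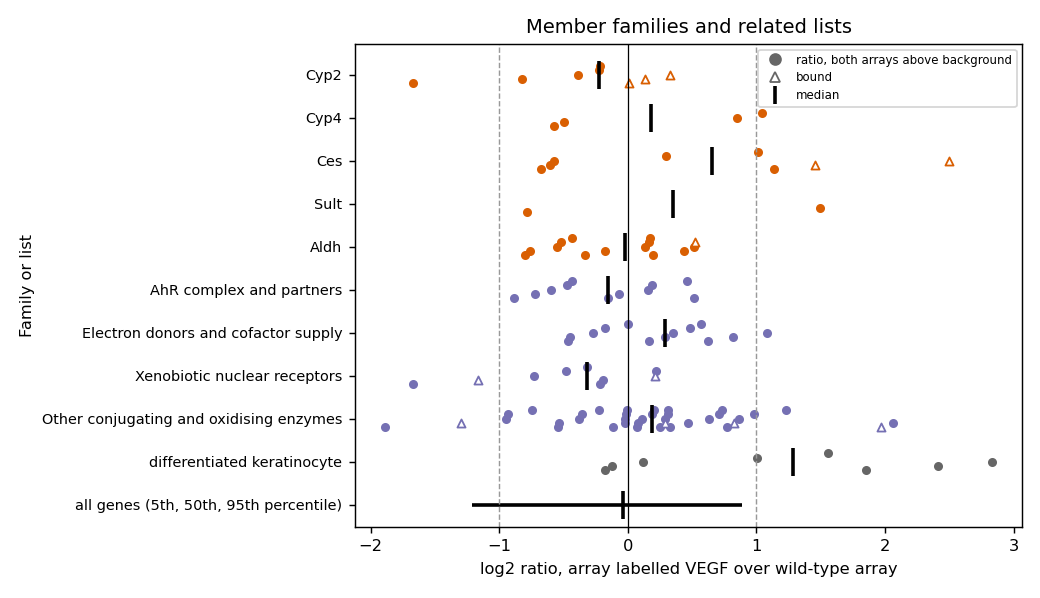
Log2 ratio (array labelled VEGF over wild-type array) of single genes in 5 families of the set (orange), 4 lists of other pathway genes (purple) and the differentiated keratinocyte markers (grey), with open triangles for bounds and black ticks for medians. The line at the bottom spans the 5th to 95th percentile of all 12194 genes, -1.21 to 0.89. With bounds included the Ces median lies at 0.65 and the Aldh median at -0.02, and over genes above background on both arrays they are -0.14 and -0.17. The median of the differentiated keratinocyte markers is 1.28.

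Like Sult2b1 and Cyp4f39, 5 of the 9 differentiated keratinocyte markers were at least 2-fold higher. Tgm3, which crosslinks the cornified envelope, had a signal of 745 on the array labelled VEGF and 105 on the wild-type array. Krt1, a suprabasal keratin gene, read 1124 against 382, Krt10, its partner, 2736 against 2525 and Ivl, which encodes involucrin, 113 against 127. The part of such cells in the ratios of Sult2b1 and Cyp4f39 was not tested.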

How the data were processed

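RNA of CD34+ tumour epithelial cells had been hybridised to Affymetrix arrays, 1 per genotype, from 100 ng of total RNA per the labels' protocols. The deposited values are log2 signals, and MAS5 is named per the submitters' processing notes. Neither its version nor its scaling target is given in the sources used here. Taken out of log2, the signals had equal trimmed means (100.04) and medians of 17.3 on the array labelled VEGF and 22.6 on the wild-type array. MAS5 summarises each array alone, and detection calls were not analysed here, so low signals are uncertain. The number of arrays, 1 per group, limits the precision.

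Of 45101 probe sets, 34958 had 1 gene in the platform annotation, 932 several and 9211 none. After leaving out control probe sets 34945 were used. The several-gene group held 11 with a symbol of the set, which were left out. Background was the 90th percentile of 80 olfactory and vomeronasal receptor probe sets on each array. Each gene was read by the probe set that was brightest on average over both arrays (log2 scale). Named were all genes of the set at least 2-fold apart, the AhR core genes, the 3 brightest of each family and those nearest to 2-fold, and, from 4 pathway lists, the genes at least 2-fold apart and the brightest. Genes outside this rule are given to account for their family and were chosen after their values were seen. The genes and lists were chosen with earlier results of these data known. All 110 symbols were found in the GRCm38.p6 RefSeq table, and promoter sequences are RefSeq's for that build. Calculations used Python 3.11.15, pandas 2.3.3, numpy 2.4.6 and statsmodels 0.14.6, and the fold functions were tested on simulated data. The 10 other settings changed the background level, the scaling, the probe set summary or the signal filter.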

Additional observations from a re-analysis of the deposited data

How the results depend on the processing

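Counts of genes at least 2-fold higher stayed at 4 to 7 and of genes at least 2-fold lower at 0 or 1 in 8 of the 10 other settings, each applied to both arrays. With no background level, 21 of 110 genes passed as higher and 12 as lower, against 9.21% and 15.2% of all genes. With the stricter signal filter 20 genes kept a value, and 3 were higher and 0 lower. With array medians matched, 50 added and no background level, all together, 4 were higher and 0 lower, and the median of all genes was 0.11 against -0.04 as reported. The median log2 ratio of the set ranged from -0.08 (median over probe sets) to 0.15 (stricter filter). For 22 of the named genes, 201 of 211 values moved by less than the SD of a probe set's ratio and 10 by more, 9 of these with that combined setting and 1 (Aldh2, -0.90) with the median over probe sets. Outside these 22, Cyp2b10 ranged from -0.82 to 0.84, Aldh3b1 from 0.34 to 3.10 and Cyp2e1 from 0.14 to 2.06. None of the 7 called genes changed sign in the settings that gave a value. Part of this stability is fixed in advance. Changing only the background level, probe set summary or signal filter cannot alter a ratio from 1 probe set that stays above background on both arrays. Sult2b1 and Cyp4f39 are such genes, and only rescaling the signals or centring the ratios could move them. No paired analysis was possible because each genotype has 1 array. Ces1g, Ces2e and Cyp2c29 each have 1 signal near or below background, and the 62 undetected genes cannot be compared.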
